A study of Homo sapiens with 12 samples.

Results

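Histone chaperones and chromatin assembly factors were followed in RCC4 cells after knockdown of MESH1. The genes were 10 of the 23710 rows of the count files and were taken by symbol: ASF1A, ASF1B, CHAF1A, CHAF1B, HIRA, DAXX, NASP, HJURP, SSRP1 and SUPT16H. Each symbol was found once in every file, and all 10 passed the filter on low counts in both experiments. RCC4 is an established line of clear cell renal carcinoma that lacks functional VHL, and MESH1, listed under its symbol HDDC3, is a cytosolic phosphatase of NADPH. Cells received 40 pmol of siRNA with a lipid reagent and were harvested at 72 h, and poly(A) RNA was sequenced with a strand-specific kit. Experiment 1 held 3 libraries of siMESH1-CDS and 3 of its non-targeting control (siNT_for_CDS). Experiment 2 held 3 libraries of siMESH1-7002 and 3 of its own control (siNT_for_7002). All cells were transfected, so the controls carry an siRNA too, and the line is a single tumour line with no further allele or treatment. The labels call the libraries biological replicates. Since these are bulk samples, fewer cells of a kind and less RNA per cell cannot be told apart.

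The siRNAs are shown because every comparison rests on them, and capitals mark the bases that pair with positions 2 to 8 of the guide strand, its seed.
siMESH1-CDS target: gggaatcactgACATTGTg
siMESH1-7002 target: ctgaaggtctcctGCTAACTa
The target of siMESH1-CDS occurs in 9 of the 10 HDDC3 transcripts of GENCODE 29, and that of siMESH1-7002 in 6 of 10. Among the histone chaperone genes, HIRA alone carries a seed site in the 3′UTR of its principal transcript, 1 site for siMESH1-7002. The labels and the design text give different catalogue numbers for siMESH1-7002.

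Histone chaperones escort histones from their synthesis in the cytoplasm to DNA and take them off again when polymerases pass. During S phase NASP keeps a pool of H3 and H4, ASF1 passes H3-H4 dimers on, and CAF-1 places them on new DNA beside PCNA. Outside replication, HIRA and the DAXX-ATRX pair lay down H3.3, and HJURP loads CENP-A at centromeres. FACT, made of SSRP1 and SUPT16H, loosens and rebuilds nucleosomes during transcription and replication.

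Reads assigned to genes were 34063155 to 49134129 per library in experiment 1 and 24787804 to 31651125 in experiment 2. Values below are CPM, the share of a library's reads that fall on a gene, scaled with TMM within each experiment. The spread between libraries was wider in experiment 1, with a biological coefficient of variation of 0.299 against 0.0490 in experiment 2. The siMESH1-CDS libraries stood apart from one another: chi-square per degree of freedom between them was 68.9 to 291, against 2.29 to 15.8 within the other groups. HDDC3 was at 6.46 to 8.23 CPM with siNT_for_CDS and at 0 to 0.316 CPM with siMESH1-CDS. It was at 12.7 to 13.9 CPM with siNT_for_7002 and at 1.18 to 1.72 CPM with siMESH1-7002, so the targeted gene followed the labels in every library. Of 8 markers of the renal line, VIM was at 2996 CPM or more and PAX8 at 26.5 CPM or more in each library. All 8 lay lower without overlap with siMESH1-CDS, KRT19 at 12.5 to 19.5 CPM with siNT_for_CDS and at 0.0441 to 1.72 CPM with siMESH1-CDS. With siMESH1-CDS NDUFA4L2 and KRT18 were also near 0 in some libraries (lowest 0.0661 and 0.242 CPM). With siMESH1-7002 each marker was at 64.5 CPM or more, 3 of the 8 lower and 2 higher than siNT_for_7002 without overlap, and the part of these markers in the results was not tested. PTPRC, CD3E, PECAM1 and CDH5 had at most 2 reads in any library. The 3 fibroblast markers, of which COL1A1 alone was above 1 CPM, summed to 21.4 to 24.9 CPM with siNT_for_CDS and to 3.33 to 4.02 CPM with siMESH1-CDS. Their sums were 11.4 to 14.3 CPM with siNT_for_7002 and 26.1 to 30.1 CPM with siMESH1-7002, and their part in the results was not tested.

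Of the 10 genes, 8 fell and 2 rose with siMESH1-CDS, and 8 fell and 1 rose with siMESH1-7002 (edgeR quasi-likelihood test, adjusted p under 0.05). Over all genes tested, 37.2% were called lower and 36.9% higher with siMESH1-CDS, and 26.7% lower and 26.6% higher with siMESH1-7002. The same 8 genes fell with each siRNA, namely ASF1B, CHAF1A, CHAF1B, HIRA, NASP, HJURP, SSRP1 and SUPT16H, and ASF1A rose with each. Among the 12824 genes tested in both experiments, 15.1% were called lower and 15.5% higher with each siRNA. The median log2 fold change of the 10 genes was -2.0 with siMESH1-CDS and -1.11 with siMESH1-7002, against -0.05 and 0.01 over all genes tested. In experiment 1 the siMESH1 and siNT libraries did not overlap for any of the 10 genes, 8 of them lower and 2 higher. Over all genes in that experiment, 42.5% lay lower and 40.2% higher without overlap. In experiment 2 the groups did not overlap for 9 of the 10, 8 lower and 1 higher, against 29.9% and 29.6% of all genes. DAXX was the exception.

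**Figure D1:**
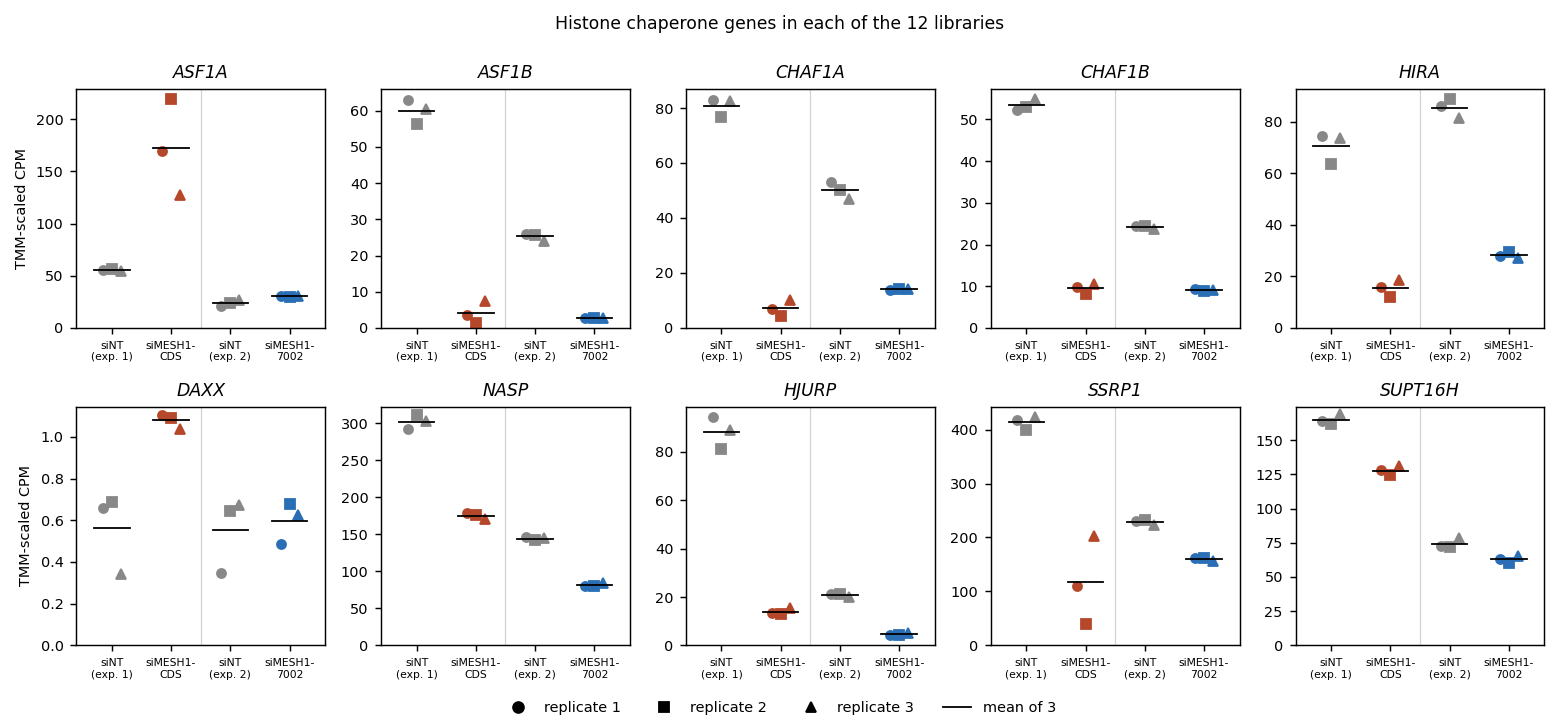
Level of each gene (TMM-scaled CPM, linear axis from 0, own scale per panel) in the 12 libraries; symbols mark replicates 1 to 3 and lines the mean of 3. Grey points are siNT, red siMESH1-CDS and blue siMESH1-7002, and in 8 of 10 panels both coloured groups lie below the siNT group of their experiment.

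Divided by transcript length, the levels in control cells spanned the whole set from FACT and NASP at the top to DAXX at the bottom. In siNT_for_CDS, SSRP1 led with 147 ± 4.35 CPM per kb (SD, n = 3), followed by NASP with 94.3 ± 2.97 and SUPT16H with 35.2 ± 0.824. Then came ASF1B (29.1 ± 1.65), HJURP (27.7 ± 2.04), CHAF1A (24.2 ± 1.06), ASF1A (23.4 ± 0.427), HIRA (17.4 ± 1.52), CHAF1B (11.9 ± 0.310) and DAXX (0.215 ± 0.0727), all in CPM per kb. ASF1B and HJURP overlapped over their 3 libraries, as did CHAF1A and ASF1A, while the other neighbours in this order did not. In siNT_for_7002 SSRP1 (81.1 ± 1.46 CPM per kb) and NASP (45.0 ± 0.720) led again, and HIRA (21.1 ± 0.947) ranked 3rd in place of 8th. Only SUPT16H and CHAF1A, ranked 4th and 5th there, overlapped. With siMESH1-CDS the order opened with ASF1A (72.8 ± 19.4 CPM per kb), whose libraries overlapped those of NASP (54.7 ± 1.38), and ASF1B (2.02 ± 1.49) stood 9th, overlapping CHAF1B (2.12 ± 0.279) above it. Among the siMESH1-CDS libraries the only neighbours without overlap were SUPT16H and HJURP, ranked 4th and 5th, and ASF1B and DAXX. With siMESH1-7002 ASF1A (12.8 ± 0.222 CPM per kb) stood 4th, overlapping SUPT16H (13.5 ± 0.567) in 3rd place, and ASF1B (1.36 ± 0.0256) was again 9th. The other neighbours there did not overlap.

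The ASF1 paralogs moved in opposite directions. ASF1A and ASF1B encode closely related chaperones of H3-H4, of which ASF1B is known as the form of dividing cells. ASF1B (chromosome 19, 14119509 to 14136956, minus strand, GRCh38) was at 62.9, 56.2 and 60.6 CPM in the siNT_for_CDS libraries and at 3.70, 1.33 and 7.42 CPM in the siMESH1-CDS libraries. In experiment 2 it was at 26.0, 25.8 and 23.98 CPM with siNT_for_7002 and at 2.81, 2.74 and 2.84 CPM with siMESH1-7002. Every knockdown library thus lay far below every control, and the siMESH1-CDS libraries differed more among themselves than those of siMESH1-7002. The log2 fold change was -3.85 (SE 0.616, edgeR adjusted p = 0.0023) with siMESH1-CDS and -3.17 (SE 0.0898, edgeR adjusted p = 7.48e-14) with siMESH1-7002. These left 6.93% and 11.1% of the control level. A log2 fold change as low as or lower than that of ASF1B was found for 7.61% of the genes tested with siMESH1-CDS and for 0.0369% with siMESH1-7002. Within lanes 4 and 6, which each held 1 library of siNT_for_CDS and 1 of siMESH1-CDS, ASF1B differed by -3.08 and -4.03 on the log2 scale.

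ASF1A (chromosome 6, 118894220 to 118909167, plus strand) was at 55.3, 56.3 and 54.3 CPM with siNT_for_CDS and at 169, 219 and 127 CPM with siMESH1-CDS. It was at 21.0, 24.3 and 27.1 CPM with siNT_for_7002 and at 30.3, 29.6 and 30.7 CPM with siMESH1-7002. The controls of experiment 2 reached close to the knockdown libraries without touching them. ASF1A rose 3.11-fold with siMESH1-CDS (log2 1.64, SE 0.201, edgeR adjusted p = 9.56e-04) and 1.25-fold with siMESH1-7002 (log2 0.33, SE 0.0793, edgeR adjusted p = 0.00235). Its log2 difference in experiment 1 was 1.21 within lane 4 and 1.64 within lane 6. In 1 model of all 4 groups the change with siMESH1-7002 was not called (log2 0.32, edgeR adjusted p = 0.244). That model uses 1 estimate of the spread for both experiments and called 2582 genes with siMESH1-7002, against 7235.

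CAF-1 lost transcripts of both subunits examined. CHAF1A and CHAF1B encode the large and middle subunits of CAF-1, which deposits H3-H4 behind the replication fork. CHAF1A (chromosome 19, 4402662 to 4445018, plus strand) was at 83.0, 76.6 and 82.6 CPM with siNT_for_CDS and at 7.02, 4.37 and 10.2 CPM with siMESH1-CDS. It was at 53.0, 50.2 and 47.0 CPM with siNT_for_7002 and at 13.9, 14.1 and 14.1 CPM with siMESH1-7002. CHAF1A fell to 8.92% of control with siMESH1-CDS (log2 -3.49, SE 0.326, edgeR adjusted p = 4.55e-04) and to 28.1% with siMESH1-7002 (log2 -1.83, SE 0.0666, edgeR adjusted p = 9.59e-13). CHAF1B (chromosome 21, 36385378 to 36419015, plus strand) showed less spread between the siMESH1-CDS libraries. It was at 52.3, 52.9 and 54.9 CPM with siNT_for_CDS and at 9.71, 8.14 and 10.6 CPM with siMESH1-CDS. In experiment 2 it was at 24.4, 24.4 and 23.8 CPM with siNT_for_7002 and at 9.43, 8.88 and 9.21 CPM with siMESH1-7002. CHAF1B fell to 17.8% (log2 -2.49, SE 0.145, edgeR adjusted p = 2.14e-04) and to 37.9% (log2 -1.40, SE 0.0718, edgeR adjusted p = 6.72e-11). Within lanes 4 and 6 the log2 differences were -3.02 and -3.56 for CHAF1A and -2.30 and -2.50 for CHAF1B.

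NASP and HJURP fell in both experiments with little spread between libraries. NASP (chromosome 1, 45583846 to 45618904, plus strand), which stores soluble H3-H4, was at 292, 311 and 304 CPM with siNT_for_CDS and at 180, 176 and 171 CPM with siMESH1-CDS. It was at 146, 142 and 145 CPM with siNT_for_7002 and at 79.6, 80.2 and 83.7 CPM with siMESH1-7002. NASP had log2 fold changes of -0.79 (SE 0.0740, edgeR adjusted p = 4.66e-04) and -0.83 (SE 0.0468, edgeR adjusted p = 2.18e-10), with 58.0% and 56.2% of control left. HJURP (chromosome 2, 233833416 to 233854566, minus strand), the CENP-A chaperone, was at 94.3, 81.3 and 88.9 CPM with siNT_for_CDS and at 13.3, 13.2 and 15.3 CPM with siMESH1-CDS. It was at 21.1, 21.4 and 20.1 CPM with siNT_for_7002 and at 4.40, 4.46 and 5.02 CPM with siMESH1-7002. HJURP kept 15.8% of control with siMESH1-CDS (log2 -2.66, SE 0.123, edgeR adjusted p = 1.78e-04) and 22.2% with siMESH1-7002 (log2 -2.17, SE 0.0862, edgeR adjusted p = 2.70e-12). Both genes showed groups far apart, and no siMESH1 library came near a control. The log2 differences within lanes 4 and 6 were -0.77 and -0.76 for NASP and -2.62 and -2.74 for HJURP.

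Of the H3.3 chaperones, HIRA fell and DAXX was barely measured. HIRA (chromosome 22, 19330698 to 19447450, minus strand), the core of the HIRA complex, was at 74.5, 63.6 and 73.9 CPM with siNT_for_CDS and at 16.1, 11.9 and 18.6 CPM with siMESH1-CDS. It was at 86.3, 88.9 and 81.3 CPM with siNT_for_7002 and at 27.9, 29.6 and 27.0 CPM with siMESH1-7002. HIRA fell to 21.9% of control with siMESH1-CDS (log2 -2.19, SE 0.194, edgeR adjusted p = 4.08e-04) and to 32.9% with siMESH1-7002 (log2 -1.60, SE 0.0584, edgeR adjusted p = 9.61e-13). The fall was also seen within lanes 4 and 6 (log2 -2.01 and -2.20). HIRA was not called with siMESH1-CDS after the correction for GC content given below (log2 -0.30, edgeR adjusted p = 0.278). Its single siMESH1-7002 seed site lies in the 3′UTR, and the part of that site in the fall was not tested.

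DAXX (chromosome 6, 33318558 to 33323016, minus strand) had 16 to 35 reads per siNT_for_CDS library and 35 to 42 per siMESH1-CDS library. It had 11 to 19 reads with siNT_for_7002 and 14 to 20 with siMESH1-7002. At this depth its 12 values lay between 0.344 and 1.11 CPM. It was called higher with siMESH1-CDS (log2 0.93, SE 0.312, edgeR adjusted p = 0.0345), a call that 11 alternatives did not keep, among them DESeq2 (adjusted p = 0.0744) and each removal of a library but that of siMESH1-CDS replicate 3. With siMESH1-7002 a change was not detectable at this depth (log2 0.13, SE 0.310, edgeR adjusted p = 0.744), and without siNT_for_7002 replicate 1 the sign turned (log2 -0.14). Within lanes 4 and 6 the log2 difference was 0.66 and 1.69. The genes around DAXX in the major histocompatibility region were low as well. Of 18 protein-coding neighbours listed, 16 averaged under 5 CPM over the siNT libraries and 5 had 0 reads in every library, RING1 and VPS52 among them. The hg19 build holds alternate copies of this region, and whether they took reads from DAXX was not tested, so its level is uncertain.

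Both FACT subunits fell. SSRP1 (chromosome 11, 57325985 to 57335877, minus strand) and SUPT16H (chromosome 14, 21351472 to 21384266, minus strand) encode its subunits. SSRP1 was at 418, 400.0 and 423 CPM with siNT_for_CDS and at 110.5, 40.0 and 203 CPM with siMESH1-CDS. It was at 231, 232 and 224 CPM with siNT_for_7002 and at 162, 163 and 156 CPM with siMESH1-7002. The groups did not overlap, although the siMESH1-CDS libraries spread over a wide range. SSRP1 fell to 28.5% (log2 -1.81, SE 0.546, edgeR adjusted p = 0.0239) and to 70.0% of control (log2 -0.51, SE 0.0429, edgeR adjusted p = 3.49e-08). The call with siMESH1-CDS was lost without any 1 of the 3 siNT_for_CDS libraries (edgeR adjusted p = 0.0577 to 0.0586) and without siMESH1-CDS replicate 1 (0.0765). In 1 model of all 4 groups, with 1 spread for both experiments, the change with siMESH1-7002 was not called (log2 -0.52, edgeR adjusted p = 0.478).

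SUPT16H was at 164, 161 and 169 CPM with siNT_for_CDS and at 128, 124 and 131 CPM with siMESH1-CDS. It was at 72.8, 71.5 and 78.3 CPM with siNT_for_7002 and at 63.3, 60.2 and 65.5 CPM with siMESH1-7002. The decreases were small against those of the other members that fell, yet larger than the spread between libraries. SUPT16H kept 77.5% (log2 -0.37, SE 0.0731, edgeR adjusted p = 0.00515) and 84.9% of control (log2 -0.24, SE 0.0551, edgeR adjusted p = 0.00174). With lane as a covariate the call with siMESH1-CDS was lost (log2 -0.36, edgeR adjusted p = 0.0665). Within lanes 4 and 6 the log2 differences were -1.04 and -1.94 for SSRP1 and -0.33 and -0.40 for SUPT16H.

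The siMESH1-CDS libraries differed among themselves in a like way over most of these genes. Replicate 2 lay farthest from the siNT mean for 8 of the 10 genes and replicate 3 nearest for 9 of 10. The shares over all genes were not computed, but chi-square per degree of freedom over all genes was largest between these libraries too, at 291. Replicate 2 ran alone on lane 7, and siNT_for_CDS replicate 2 alone on lane 5, so library and lane cannot be told apart there. With siMESH1-7002 no library lay farthest for more than 4 genes. The coefficient of variation between siMESH1-CDS libraries was 74.0% for ASF1B, 69.4% for SSRP1 and 40.6% for CHAF1A, against 2.52% for NASP and 2.56% for SUPT16H. With siMESH1-7002 the same coefficient was at most 7.33% for the 9 genes other than DAXX.

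**Figure D2:**
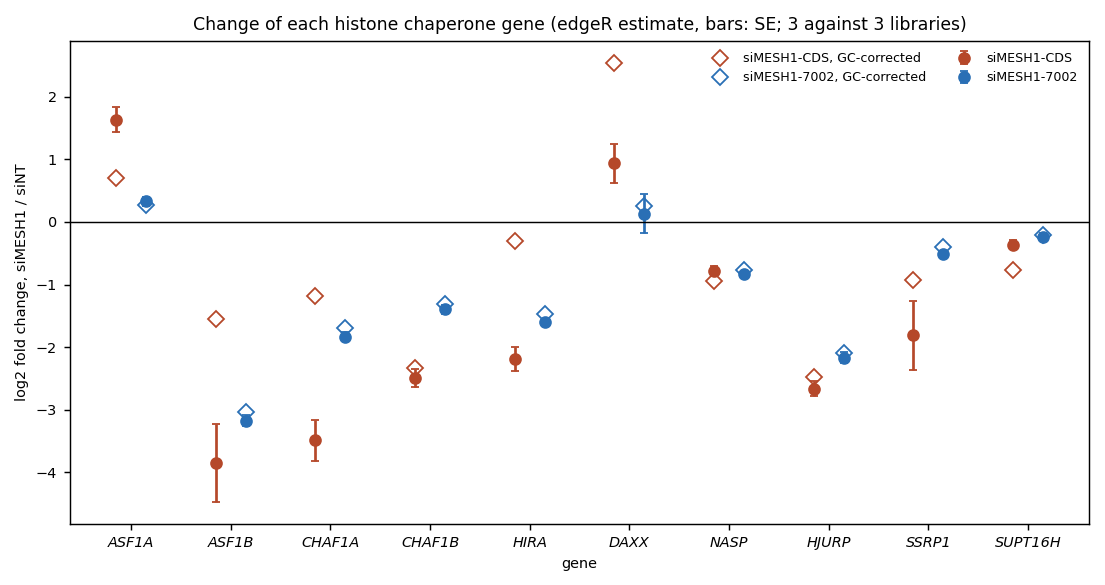
Log2 fold change of each gene with siMESH1-CDS (red) and siMESH1-7002 (blue); filled points are the edgeR estimates with SE as bars (3 against 3 libraries) and open diamonds the estimates after correction for GC content. The blue pairs nearly coincide, while for siMESH1-CDS the correction moves HIRA from -2.19 to -0.30 and leaves CHAF1B, HJURP and NASP near their values.

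The change with siMESH1-CDS was compared with that of siMESH1-7002 in 1 model of the 12 libraries. All 12 were scaled together here, so these differences carry that scaling and need not equal those between the changes given above. NASP, with changes of -0.79 and -0.83, had a difference of -0.11. The separate fits had medians of -0.05 and 0.01 over all genes. Over all 14154 genes tested, 39.7% were called lower and 30.0% higher with siMESH1-CDS, and the median difference was -0.24 on the log2 scale. Among the chaperone genes 6 were called lower and 1 higher. The difference was -1.80 for CHAF1A (SE 0.324, edgeR adjusted p = 7.02e-04), -1.24 for CHAF1B (SE 0.142, edgeR adjusted p = 4.07e-05) and 1.16 for ASF1A (SE 0.233, edgeR adjusted p = 0.00136). Smaller differences were found for HIRA (-0.74, SE 0.204), HJURP (-0.64, SE 0.140) and SUPT16H (-0.28, SE 0.0951), the last of which kept its call in 14 of 20 alternatives. The call of SSRP1 (-1.45, SE 0.580, edgeR adjusted p = 0.0452) was kept in 7 of 20 alternatives and lost, among others, after GC correction (-0.50, edgeR adjusted p = 0.206). ASF1B (-0.83, SE 0.597, edgeR adjusted p = 0.235), NASP (-0.11, SE 0.0829, edgeR adjusted p = 0.275) and DAXX (0.66, SE 0.429, edgeR adjusted p = 0.193) did not pass the test, which does not show that they changed alike. The model used 1 estimate of the spread for both experiments, although their coefficients of variation were 0.299 and 0.0490. For CHAF1A the SE of the difference (0.324) was no larger than that of the change with siMESH1-CDS alone (0.326). The adjusted p-values of these differences can thus be too small. The siRNA and the experiment, with its own lanes and controls, cannot be told apart in this comparison.

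GC content moved with the changes in experiment 1. The 10 genes span much of the range, from ASF1A with 34.9% GC in its longest coding transcript, lower than all but 1.9% of genes, to ASF1B with 58.4%, at percentile 79.6. When all genes were put into 10 classes of GC content, the class poorest in GC had a median log2 fold change of 1.11 with siMESH1-CDS and the richest one of -3.67. With siMESH1-7002 these medians were 0.14 and -0.09. Read against their own class with siMESH1-CDS, CHAF1B lay at percentile 4.56, HJURP at 4.02, CHAF1A at 10.7, SUPT16H at 14.7 and NASP at 15.6, where low percentiles mean a stronger fall. ASF1B and SSRP1 both lay at percentile 20.5 of their classes, HIRA at 34.1, ASF1A at 76.9 and DAXX at 97.6. With siMESH1-7002 the percentiles within class were 0.228 for ASF1B, 0.609 for HJURP, 0.914 for CHAF1A, 1.45 for HIRA, 3.05 for CHAF1B, 5.48 for NASP, 12.6 for SSRP1, 22.8 for SUPT16H, 71.4 for DAXX and 72.6 for ASF1A.

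**Figure D3:**
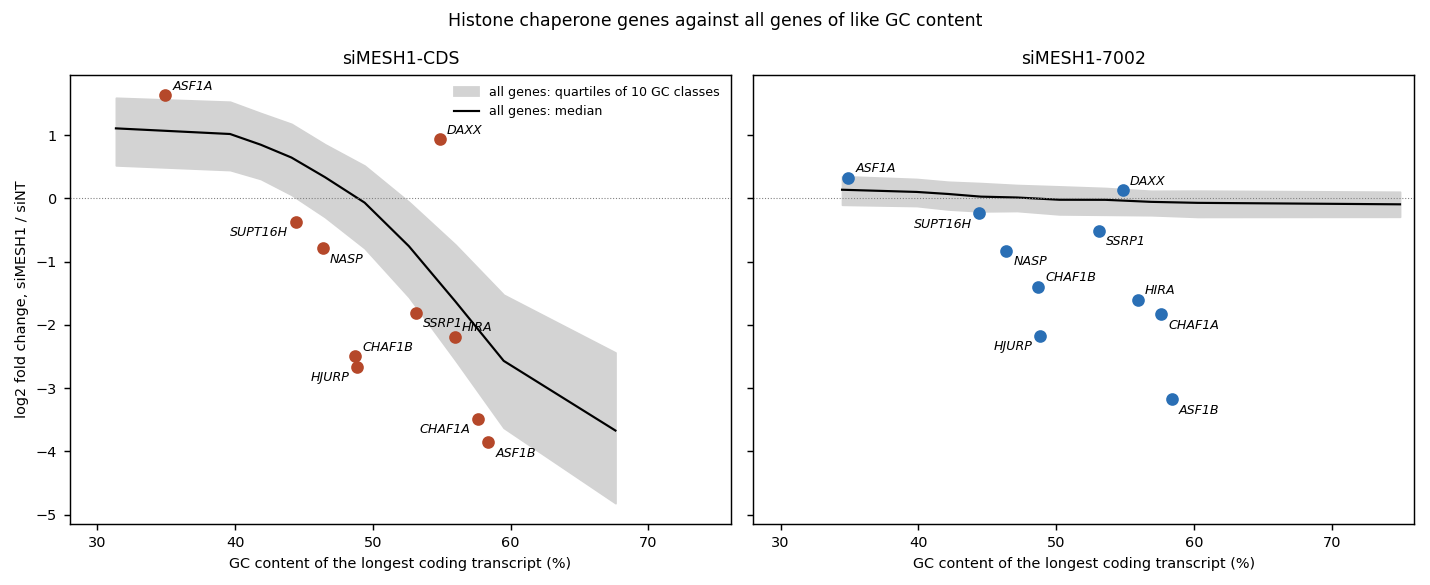
Log2 fold change (vertical axis) against GC content of the longest coding transcript in percent (horizontal axis) for siMESH1-CDS (left) and siMESH1-7002 (right); the line and band are the median and quartiles of all genes in 10 GC classes. On the left HIRA lies inside the band of its class and CHAF1B and HJURP well below theirs, and on the right 6 of the genes lie far below a nearly flat band.

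After a correction for GC content in each library, 7 of the 10 genes were called lower and 2 higher with siMESH1-CDS, against 27.0% and 40.9% of all genes. The corrected log2 fold changes were -2.48 for HJURP, -2.33 for CHAF1B, -1.56 for ASF1B, -1.19 for CHAF1A, -0.94 for NASP, -0.92 for SSRP1 and -0.77 for SUPT16H, and ASF1A stood at 0.70 and DAXX at 2.54 (edgeR adjusted p at most 0.0365). The value of DAXX rests on 16 to 35 reads per siNT_for_CDS library and 35 to 42 per siMESH1-CDS library. Its call without the correction was lost in 11 alternatives, so its rise is uncertain. HIRA was no longer called (log2 -0.30, edgeR adjusted p = 0.278). The correction moved the median of all genes with siMESH1-CDS by 0.22 on the log2 scale, and scaling by library size alone moved it by -0.26. With siMESH1-7002 the corrected values kept 8 genes lower and 1 higher, ASF1B at -3.04 and HIRA at -1.47, against 24.1% and 39.7% of all genes. Of the differences between the siRNAs, 4 were called lower and 5 higher with siMESH1-CDS after correction, against 27.7% and 34.0% of all genes. ASF1B (1.57), CHAF1A (0.56) and HIRA (1.23) then had the opposite sign (edgeR adjusted p at most 0.0175).

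Ratios of partner transcripts within a library do not depend on the scaling between libraries, but they can depend on GC content where the partners differ in it. The 4 pairs were compared in each experiment with an exact two-sided permutation test, in which 3 against 3 libraries cannot give a p-value below 0.1, and each of the 8 tests gave 0.1 (0.1 also after Benjamini-Hochberg adjustment). ASF1B and ASF1A reads stood at 1.14, 0.998 and 1.11 to 1 with siNT_for_CDS and at 0.0218, 0.00606 and 0.0582 to 1 with siMESH1-CDS. With siNT_for_7002 the ratio was 1.24, 1.06 and 0.886, and with siMESH1-7002 it was 0.0928, 0.0924 and 0.0926. The paralogs thus went from about equal reads to a large excess of ASF1A, with log2 differences of -5.77 and -3.51. After GC correction these were -2.26 and -3.30. The CHAF1A to CHAF1B ratio was 1.59, 1.45 and 1.504 in siNT_for_CDS and 0.723, 0.537 and 0.962 in siMESH1-CDS, and 2.17, 2.05 and 1.97 in siNT_for_7002 and 1.48, 1.59 and 1.53 in siMESH1-7002. In each experiment every siMESH1 library had fewer CHAF1A reads per CHAF1B read than every control, by -1.07 and -0.43 on the log2 scale. After GC correction the sign turned with siMESH1-CDS (1.14) and was kept with siMESH1-7002 (-0.38). The SSRP1 to SUPT16H ratio was 2.48 to 2.55 with siNT_for_CDS and 0.322 to 1.55 with siMESH1-CDS, and 2.86 to 3.24 with siNT_for_7002 and 2.39 to 2.70 with siMESH1-7002. The log2 differences were -1.73 and -0.28, and no group overlapped its control, while after GC correction they were -0.16 and -0.20. The HIRA to DAXX ratio was 92.6 to 215 with siNT_for_CDS, 10.9 to 17.9 with siMESH1-CDS, 121 to 249 with siNT_for_7002 and 43.1 to 57.5 with siMESH1-7002, and it rests on the few reads of DAXX.

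**Figure D4:**
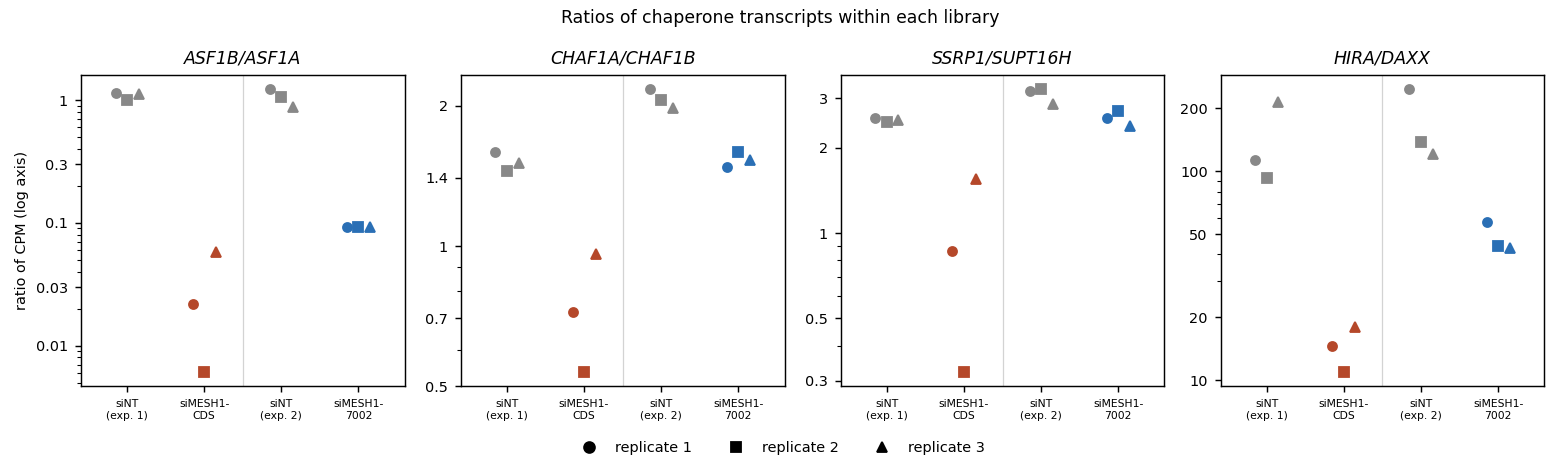
Ratio of CPM of 4 pairs of transcripts in each of the 12 libraries (log axis, own scale per panel; grey siNT, red siMESH1-CDS, blue siMESH1-7002, symbols for replicates 1 to 3). In every panel the siMESH1 libraries lie below the siNT libraries of their experiment, and the blue ASF1B/ASF1A ratios span only 0.0924 to 0.0928.

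Promoters were searched for words bound by regulators of cell cycle genes, since 8 of the genes fell with each siRNA. RefSeq promoters (GRCh38.p14, 250 bases before to 50 after the start) were matched for 9 of the 10 genes, all but DAXX. The E2F words TTTCCCGC, TTTCGCGC, TTTGCCGC and TTTGGCGC were found, on either strand, in 1 of the 9 promoters and in 3.3% of the 35116 promoters of the table. The CHR words TTTGAA and TTCGAA were found in 2 of 9 and in 16.4% of all, and the NF-Y word CCAAT in 6 of 9 and in 34.6% of all. The matches that stand out are printed with the word in capitals, the strand of the gene and the position of the word from the RefSeq start site. RefSeq starts can differ from the GENCODE gene positions given above: the windows printed for HIRA and ASF1B lie inside those genes.
HIRA, E2F word at -45, chr22:19431760-19431789, minus strand: gtggggagcggTTTCCCGCcggggcgattt
ASF1B, CHR word at -27, chr19:14136600-14136627, minus strand: gaggccggctaTTTGAAggcggcgcgcg
ASF1B, NF-Y word at -53, chr19:14136627-14136653, minus strand: cgttggcggtgATTGGccagagggcgg
HJURP, CHR word at -111, chr2:233854630-233854657, minus strand: acgcaaatttgTTTGAAaggcccaatca
HJURP, NF-Y word at -72, chr2:233854592-233854618, minus strand: ctccgctctagCCAATagaaaaccgag
CHAF1A, NF-Y word at -188, chr19:4402441-4402467, plus strand: gctcctcccagCCAATgacaggcctcc
ASF1A, NF-Y word at 15, chr6:118894156-118894182, plus strand: ctcgggtgcagCCAATcgagggcaacg
The words printed do not overlap each other, although the HJURP window at -111 also holds a further CCAAT. ASF1B and HJURP, with 3 and 4 CCAAT matches, are the genes with both a CHR and an NF-Y word, and they had the lowest log2 fold changes of the set with siMESH1-7002, whereas with siMESH1-CDS CHAF1A (-3.49), which has no CHR word, stood below HJURP (-2.66). CHAF1A held 4 CCAAT matches, ASF1A, NASP and SUPT16H 1 each, and CHAF1B and SSRP1 held none of the words. ASF1A, the member that rose, has its CCAAT after the RefSeq start site but before the GENCODE start of the gene (118894220). These are matches of letters in one window, not measured sites.

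Beyond the 10 genes, 57 others of chromatin assembly were taken from 7 lists, and 56 were tested. H3F3A, which has near-identical copies in the genome, had 0 reads in all 12 libraries. With siMESH1-CDS 25 fell and 20 rose, with a median log2 fold change of -0.22, and with siMESH1-7002 29 fell and 9 rose, with a median of -0.19. Over all genes tested, 37.2% fell and 36.9% rose with siMESH1-CDS and 26.7% fell and 26.6% rose with siMESH1-7002. After GC correction 21 of the 56 fell and 17 rose with siMESH1-CDS, and 29 fell and 15 rose with siMESH1-7002. The corrected shares of all genes were 27.0% lower and 40.9% higher with siMESH1-CDS, and 24.1% lower and 39.7% higher with siMESH1-7002. Of 11 partners in replication, 8 fell and 1 rose with siMESH1-CDS (median -1.65), and 9 fell with siMESH1-7002 (median -0.43). The corrected counts were 8 and 9 lower, with medians of -0.71 and -0.46. MCM2, the helicase subunit that holds parental H3-H4, fell from 97.0 ± 6.97 to 4.30 ± 4.50 CPM with siMESH1-CDS (log2 -4.50) and from 84.7 ± 3.24 to 27.9 ± 0.799 CPM with siMESH1-7002 (log2 -1.60). TONSL, a reader of new H4, fell from 10.5 ± 1.06 to 0.106 ± 0.133 CPM (log2 -6.61, resting on 1, 1 and 9 reads with siMESH1-CDS) and from 38.6 ± 3.23 to 16.0 ± 0.765 CPM (log2 -1.27). DNAJC9, a co-chaperone of H3-H4, had log2 fold changes of -1.65 and -0.81. These 3 were called with each siRNA (edgeR adjusted p at most 0.00583). After GC correction MCM2 stood at -2.43 and TONSL at -2.83 with siMESH1-CDS.

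Of the 4 partners of HJURP at the centromere, 4 were called lower with siMESH1-7002 (median -0.52) and 1 with siMESH1-CDS (median -0.18). Over all genes 26.7% were called lower with siMESH1-7002 and 37.2% with siMESH1-CDS, and 24.1% and 27.0% after GC correction. After GC correction 4 of 4 fell with each siRNA (medians -0.76 and -0.53). OIP5, a subunit of the Mis18 complex that primes centromeres, fell with each siRNA (log2 -0.82 and -1.69). MIS18A (log2 -0.15 and -0.62) and RBBP7, a histone-binding protein (log2 -0.15 and -0.23), were called with siMESH1-7002 and not with siMESH1-CDS. In the model of 12 libraries, with its joint scaling, the difference between the siRNAs did not pass the test for either (0.32 and -0.07 on the log2 scale, edgeR adjusted p = 0.241 and 0.608). With GC correction both were also called with siMESH1-CDS (-0.60 and -0.46, edgeR adjusted p = 0.0162 and 0.00392). CENPA, the histone that HJURP loads, fell from 16.6 ± 1.23 to 5.37 ± 0.828 CPM with siMESH1-CDS (log2 -1.63, edgeR adjusted p = 7.68e-04) and from 6.96 ± 0.934 to 1.24 ± 0.390 CPM with siMESH1-7002 (log2 -2.47, edgeR adjusted p = 4.56e-09). Of 9 replacement histone genes tested, 8 fell with siMESH1-CDS (median -1.63) and 6 fell and 1 rose with siMESH1-7002 (median -0.54). H2AFX, the H2A variant marked at DNA breaks, was at -2.33 and -1.02, and H2AFY, which encodes macroH2A, was at -1.55 and -0.82. After GC correction 3 of the 9 fell and 1 rose with siMESH1-CDS (median -0.37), with H2AFX at 1.63 and H2AFY at 0.0099, so both genes were lower with siMESH1-CDS only without that correction.

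Partners of HIRA and DAXX were split, with 2 of 4 lower and 2 higher with siMESH1-CDS (median 0.17) and 1 lower and 2 higher with siMESH1-7002 (median 0.05). The shares of all genes were 37.2% lower and 36.9% higher with siMESH1-CDS, and 26.7% and 26.6% with siMESH1-7002. After GC correction these shares were 27.0% and 40.9%, and 24.1% and 39.7%. ATRX, the remodeller that works with DAXX, rose with each siRNA (log2 1.09 and 0.47), and UBN1, a subunit of the HIRA complex, fell (-0.75 and -0.30). UBN2 was called higher with each (1.39 and 0.18), but with siMESH1-7002 its groups overlapped (edgeR adjusted p = 0.0424). That call was lost in 7 alternatives, among them DESeq2 (adjusted p = 0.0511). With GC correction none of the 4 fell and 1 rose with siMESH1-CDS (edgeR), and the calls of ATRX (0.21, edgeR adjusted p = 0.0522) and UBN1 (-0.13, edgeR adjusted p = 0.508) were lost. Of 5 transcription-coupled chaperones, 2 fell and 2 rose with siMESH1-CDS (median -0.14), and 1 fell and 1 rose with siMESH1-7002 (median 0.07), with no gene called in the same direction by each. IWS1, which binds SUPT6H, was at 0.45 and -0.33, SPTY2D1, a chaperone of H3-H4, at 1.52 and 0.10 and SUPT6H itself, a chaperone that travels with RNA polymerase II, at -1.53 and 0.15. After GC correction 1 of the 5 fell and 3 rose with siMESH1-CDS and 1 fell and 4 rose with siMESH1-7002. SPTY2D1 was then higher with each siRNA (0.89 and 0.11, edgeR adjusted p = 7.86e-05 and 0.0193), and SUPT6H lost its call with siMESH1-CDS (-0.49, edgeR adjusted p = 0.0561). Of 14 chaperones of the NAP1, nucleoplasmin and acidic kinds, 4 fell and 8 rose with siMESH1-CDS (median 0.31) and 7 fell with siMESH1-7002 (median -0.18). PTMA, an acidic protein that binds histone H1, fell with each siRNA (-1.40 and -0.26), as did GRWD1 (-4.44 and -0.22), and the chromatin protein DEK was at 0.57 and -0.60. After GC correction 4 of the 14 fell and 4 rose with siMESH1-CDS and 7 fell and 2 rose with siMESH1-7002. GRWD1 then stood at -2.10 and, no longer called, at -0.08 (edgeR adjusted p = 0.0552), and DEK at -0.20 with siMESH1-CDS (edgeR adjusted p = 0.091). PTMA has many processed copies in the genome, so its counts are uncertain.

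Remodellers that space nucleosomes went the other way from the replication partners. Of 9 ISWI and CHD assembly factors 7 rose with siMESH1-CDS (median 0.90), and 5 rose and 1 fell with siMESH1-7002 (median 0.23). Over all genes 36.9% and 26.6% were called higher. The ATPases CHD1 (log2 1.01 and 0.50) and SMARCA1 (1.36 and 0.49) and the ACF subunit BAZ1A (0.90 and 0.25) were called with each siRNA (edgeR adjusted p at most 0.00353). After GC correction their values with siMESH1-CDS were 0.17, 0.58 and 0.18, each still called, and 8 of the 9 factors rose and 1 fell (median 0.38). Over all genes the corrected median was 0.17 and 40.9% were called higher, so CHD1 and BAZ1A then lay near the median of all genes.

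**Figure D5:**
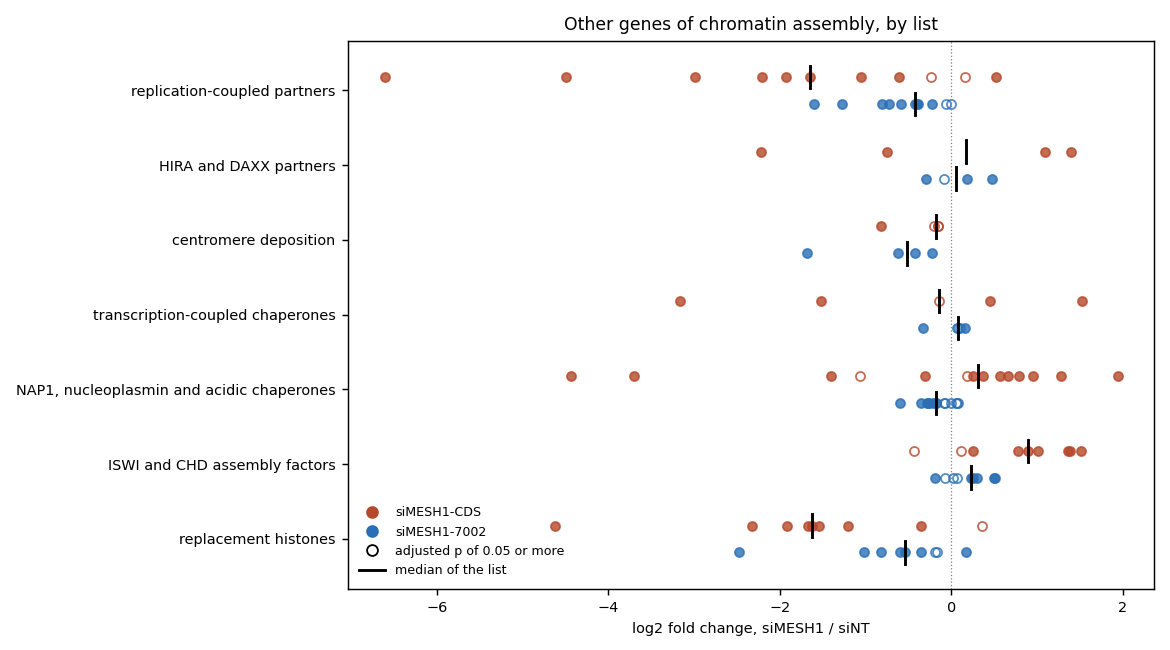
Log2 fold change (horizontal axis) of 56 other genes of chromatin assembly in 7 lists (rows), with red for siMESH1-CDS and blue for siMESH1-7002; open circles did not pass the test and black bars are medians. The replication partners and replacement histones lie mostly left of 0 and the ISWI and CHD factors mostly right of it in both colours.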

How the data were processed

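RNA-seq was measured in 12 RCC4 libraries, with groups taken from the labels' siRNA names. The authors mapped single-end reads of 50 bases with HISAT2 to hg19 and deposited HTSeq counts of reads per gene, not normalized. Versions and the annotation are not given in the sources used here. Rows that name no gene held 38.9% to 49.3% of reads and were left out. The authors' DESeq2 tables (fold changes and p-values) were not used. These counts went into edgeR 4.0.16 (R 4.3.3; filterByExpr, TMM, quasi-likelihood F test) against the siNT of the same experiment, and the siRNAs against each other in 1 model of 12 libraries, with Benjamini-Hochberg adjustment over all genes and a threshold of 0.05. CPM were TMM-scaled. The edgeR test gives no SE, so SE were derived as the absolute log2 fold change divided by the square root of its F statistic. Ratios had exact permutation tests. Alternatives used DESeq2 1.42.0, limma 3.58.1 and a GC offset per library (lowess of log2 CPM, span 0.3). GC content, lengths and positions come from GENCODE 29 on GRCh38, by symbol (21257 of 23710 by name, 1147 by an older symbol). Calls were also tested on simulated data with a coefficient of variation of 0.05, near the 0.0490 of experiment 2. The 0.299 of experiment 1 was not simulated, so the simulation does not bear on the calls with siMESH1-CDS. Protein sequences were not used here. The members and lists were chosen with earlier results of these data known. All members are named, and from each other list up to 3 genes, with those called alike for each siRNA first, by their smaller change, and otherwise by adjusted p. At 24787804 to 49134129 reads per library, DAXX was the only member limited by few reads, and whether depth alone made them few was not tested.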

Additional observations from a re-analysis of the deposited data

Results flagged for a closer look

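For 7 of the 10 genes the change with siMESH1-CDS differed from that with siMESH1-7002 by the test of the difference itself (edgeR, 1 model of 12 libraries). Of all 14154 genes tested 9866 were called, 39.7% lower and 30.0% higher with siMESH1-CDS. The count of 7 of 10 is thus close to the share of all genes. On the log2 scale the difference was -1.80 for CHAF1A (edgeR adjusted p = 7.02e-04), -1.45 for SSRP1 (0.0452), -1.24 for CHAF1B (4.07e-05), -0.74 for HIRA (0.00834), -0.64 for HJURP (0.00229), -0.28 for SUPT16H (0.0217) and 1.16 for ASF1A (0.00136). The median difference of all genes was -0.24, close to the value of SUPT16H. For CHAF1B, HJURP, SUPT16H and ASF1A the sign and call were the same after GC correction (-1.04, -0.41, -0.63 and 0.36), for CHAF1A (0.56) and HIRA (1.23) the sign turned, and for SSRP1 the call was lost (-0.50, edgeR adjusted p = 0.206). Of 20 alternatives, 7 kept the call of SSRP1 and 14 that of SUPT16H. The model scaled all 12 libraries together and used 1 estimate of the spread for both experiments, so these adjusted p-values can be too small. The siRNA and the experiment cannot be told apart in these differences. Groups held 3 libraries each, too few for a test of single libraries that stand apart.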

How the results depend on the processing

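Of 160 recomputed calls of the 10 genes with siMESH1-CDS, 142 kept direction and call, as did 147 of 150 with siMESH1-7002 and 172 of 200 for the difference between the siRNAs. The number of genes higher with siMESH1-CDS, 2 as reported, was 1 with DESeq2, library-size scaling, a minimum of 10 counts per library, a threshold of 0.01, lane as a covariate and the replicate block, and 1 to 2 when single libraries were left out, since DAXX was lost. With siMESH1-7002 it was 0 in 1 model of all 4 groups, where 2582 genes were called in all, against 7235. With GC correction 15 in place of 9 other assembly genes rose with siMESH1-7002, and 5 of the 10 genes were higher with siMESH1-CDS than with siMESH1-7002, against 1 as reported and 2 with limma voom and sample weights. The same correction moved the share of all genes called higher from 26.6% to 39.7% with siMESH1-7002, and from 30.0% to 34.0% for the difference. The number of other assembly genes lower with siMESH1-CDS was 15 to 27 when single libraries were left out, lowest without siMESH1-CDS replicate 1. GC correction turned the sign of DEK (-0.20), H2AFX (1.63) and H2AFY (0.0099) with siMESH1-CDS and of the difference between siRNAs for ASF1B (1.57), CHAF1A (0.56) and HIRA (1.23). DESeq2 turned that of NASP (0.020). With GC correction, an alternative for the ratios chosen after seeing the data, the log2 difference with siMESH1-CDS was -2.26 for ASF1B/ASF1A, 1.14 for CHAF1A/CHAF1B and -0.16 for SSRP1/SUPT16H, and with siMESH1-7002 -3.30 for ASF1B/ASF1A. Leaving out single libraries gave -0.31 to 0.0061 for MIS18A with siMESH1-CDS and -0.14 to 0.32 for DAXX with siMESH1-7002. Of all calls, 50.2% were lower with siMESH1-CDS and 50.1% with siMESH1-7002, and 39.8% and 37.7% after GC correction. Replicate numbers gave no clear pairing of the libraries. In experiment 1 same-numbered libraries correlated at -0.05, 0.22 and 0.13, and other pairs at -0.26 to 0.17. In experiment 2 same-numbered libraries correlated at -0.06, 0.04 and -0.08, and other pairs at -0.09 to 0.14. Values were centred within each group of 3, which constrains the correlations, so they cannot exclude a pairing. With the replicate block the fits called 9273 and 6972 genes, against 9926 and 7235, and 8 of the 10 genes fell with each siRNA. Few reads limit the statements on DAXX among the 10 genes and on TONSL with siMESH1-CDS, and H3F3A had no reads to test.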
